A study of Mus musculus with 11 samples.

Results

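The basement membrane genes described here are those of 4 building blocks, the collagen IV chains (Col4a1, Col4a2), the laminin chains (Lama4, Lama5, Lamb1, Lamb2, Lamc1), the nidogens (Nid1, Nid2) and perlecan (Hspg2). They were taken by gene symbol from the merged raw count table of an RNA sequencing study of whole distal tibia, and the measure was CPM (counts scaled to the library total) in every library, compared between Control and BMAd-DTA mice. Of the 10 named genes, 9 were analysed among the 22600 genes of the merged table, and all 9 passed the filter on low counts that left 16496 genes. Lamb1 was not analysed here.

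The study asked what bone marrow adipocytes (BMAds) do to bone by killing them with diphtheria toxin A (DTA). In BMAd-DTA mice, Osterix-driven FLPo recombinase switches on an FLPo-dependent Cre in the Adipoq gene (FAC), and this Cre removes a LoxP-flanked STOP cassette in front of DTA at the ROSA locus. Control mice, whose genotype label is BMAd-WT, carried both Osterix-FLPo and FAC as well, according to the methods, so the groups differ in DTA and share the altered Adipoq allele. The Cre reaches BMAds and a small subset of adipocyte-lineage marrow stromal precursors, and recombination was less efficient in young mice. All mice were C57BL6/SJL, 24 weeks old and fed ad libitum, and the 4 Control and 7 BMAd-DTA libraries each came from 1 tibia sample.

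Basement membranes are thin sheets of extracellular matrix that underlie endothelium and surround adipocytes, muscle fibres, smooth muscle and Schwann cells. Laminin trimers of an alpha, a beta and a gamma chain and a crosslinked network of collagen IV form separate layers, which nidogens and the heparan sulfate proteoglycan perlecan tie together. In marrow, such sheets line vessels and wrap adipocytes, so these genes are read from several cell types at once in whole bone. In bulk RNA, fewer cells of a type and less RNA per cell cannot be told apart.

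A few stretches of promoter sequence are shown for the members that had a matched window, whatever their levels. Lama4, Lamc1 and Nid2 had none. Sequences are RefSeq windows on GRCm38.p6, printed 5′ to 3′, and windows were matched for 6 of the 9 members. Capitals mark GC boxes (GGGCGG) and CCAAT boxes (CCAAT) on either strand. The Col4a1 and Col4a2 genes lie head to head on chromosome 8 and their transcripts overlap by 22 bases on opposite strands (chr8:11312805-11312826, plus strand shown). The other 4 lines are bases before the first annotated start of Lama5 (chr2:180225860-180226109, minus strand), Nid1 (chr13:13437352-13437550, plus strand), Hspg2 (chr4:137468553-137468768, plus strand) and Lamb2 (chr9:108479612-108479735, plus strand).
Col4a1 and Col4a2: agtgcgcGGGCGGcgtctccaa
Lama5: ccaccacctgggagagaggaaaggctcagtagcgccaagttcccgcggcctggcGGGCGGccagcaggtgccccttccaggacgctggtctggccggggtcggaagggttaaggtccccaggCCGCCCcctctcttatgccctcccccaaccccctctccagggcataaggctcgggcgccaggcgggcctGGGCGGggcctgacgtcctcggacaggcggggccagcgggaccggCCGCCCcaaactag
Nid1: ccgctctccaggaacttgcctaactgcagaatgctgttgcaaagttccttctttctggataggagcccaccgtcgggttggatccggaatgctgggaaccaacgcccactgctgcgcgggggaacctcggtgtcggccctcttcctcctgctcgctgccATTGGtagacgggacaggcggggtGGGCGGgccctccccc
Hspg2: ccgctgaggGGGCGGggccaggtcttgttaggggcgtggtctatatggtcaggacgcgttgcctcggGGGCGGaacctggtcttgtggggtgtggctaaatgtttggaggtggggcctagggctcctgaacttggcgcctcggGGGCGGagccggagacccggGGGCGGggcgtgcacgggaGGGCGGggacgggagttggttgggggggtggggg
Lamb2: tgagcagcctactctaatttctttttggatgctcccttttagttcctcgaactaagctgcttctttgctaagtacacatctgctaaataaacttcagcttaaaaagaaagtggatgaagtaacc
The 300-base RefSeq windows, which run from 250 bases before the start to 50 after it, held 74.0% G and C in Col4a1, 73.7% in Col4a2, 72.7% in Lama5, 70.3% in Hspg2, 64.7% in Nid1 and 44.0% in Lamb2. The median over all 32851 mouse windows was 52.7%. GC boxes numbered 5 in Hspg2, 4 in Lama5, 3 in Col4a2, 1 in Col4a1, 1 in Nid1 and 0 in Lamb2, and 35.7% of all windows hold at least 1. A CCAAT box was present in Col4a1, Col4a2 and Nid1, against 37.4% of all windows, and none of the 6 windows held a TATA box (TATAAA, on either strand), which 13.6% of all windows hold. These letter matches describe the windows and are not evidence of binding. In 3 of the 6 windows the RefSeq start lies inside the gene as GENCODE annotates it, at 108479862 against 108479736 in Lamb2, 13437602 against 13437551 in Nid1 and 137468803 against 137468769 in Hspg2.

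Library depth was even, with 16969529 to 18637663 counts per library in the merged table and scaling factors between 0.968 and 1.04. Within each group, any 2 libraries differed by more than sampling noise, at a chi-square per gene of 16.6 to 55.0, so none was counted as a duplicate. Counts of Xist, the RNA that silences an X chromosome, ran from 13810 to 20260, while the labels give no sex. Legends to distal tibia experiments in the paper describe male mice, which these Xist counts do not match. The sex of the mice was not settled here. Skeletal muscle markers were uneven within both groups, with a summed level of 28.2 to 1474 CPM in Control and 27.6 to 1145 CPM in BMAd-DTA. The labels do not say whether bones were pooled, and p-values measure the spread between these samples.

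BMAd-DTA tibiae held the basement membrane genes at levels close to those of Control tibiae. No member of the 9 reached the adjusted threshold of 0.05 with edgeR's quasi-likelihood test, DESeq2 or limma-voom, against 13 of 16496 genes called in edgeR (0.0788%), 845 of 22593 in DESeq2 (3.74%) and 20 of 16496 in limma-voom (0.121%). The DESeq2 total of 22593 holds every gene with a p-value, and not all of these had an adjusted p (Col4a5 had none). Its share among genes that could be called is therefore above 3.74%. The edgeR count of 13 ranged from 0 to 292 when 1 mouse was left out. The log2 fold change (BMAd-DTA against Control) was above 0 in 7 members and below 0 in 2, with a median of 0.082, beside 0.0018 over all genes tested. An unadjusted p under 0.05 was reached by 2 members, Lamb2 and Hspg2, both higher in BMAd-DTA, where 7.89% of all genes reached it in that direction and 8.53% in the other. In no member did all 7 BMAd-DTA libraries lie above all 4 Control libraries, as they did in 1.78% of genes.

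**Figure D1:**
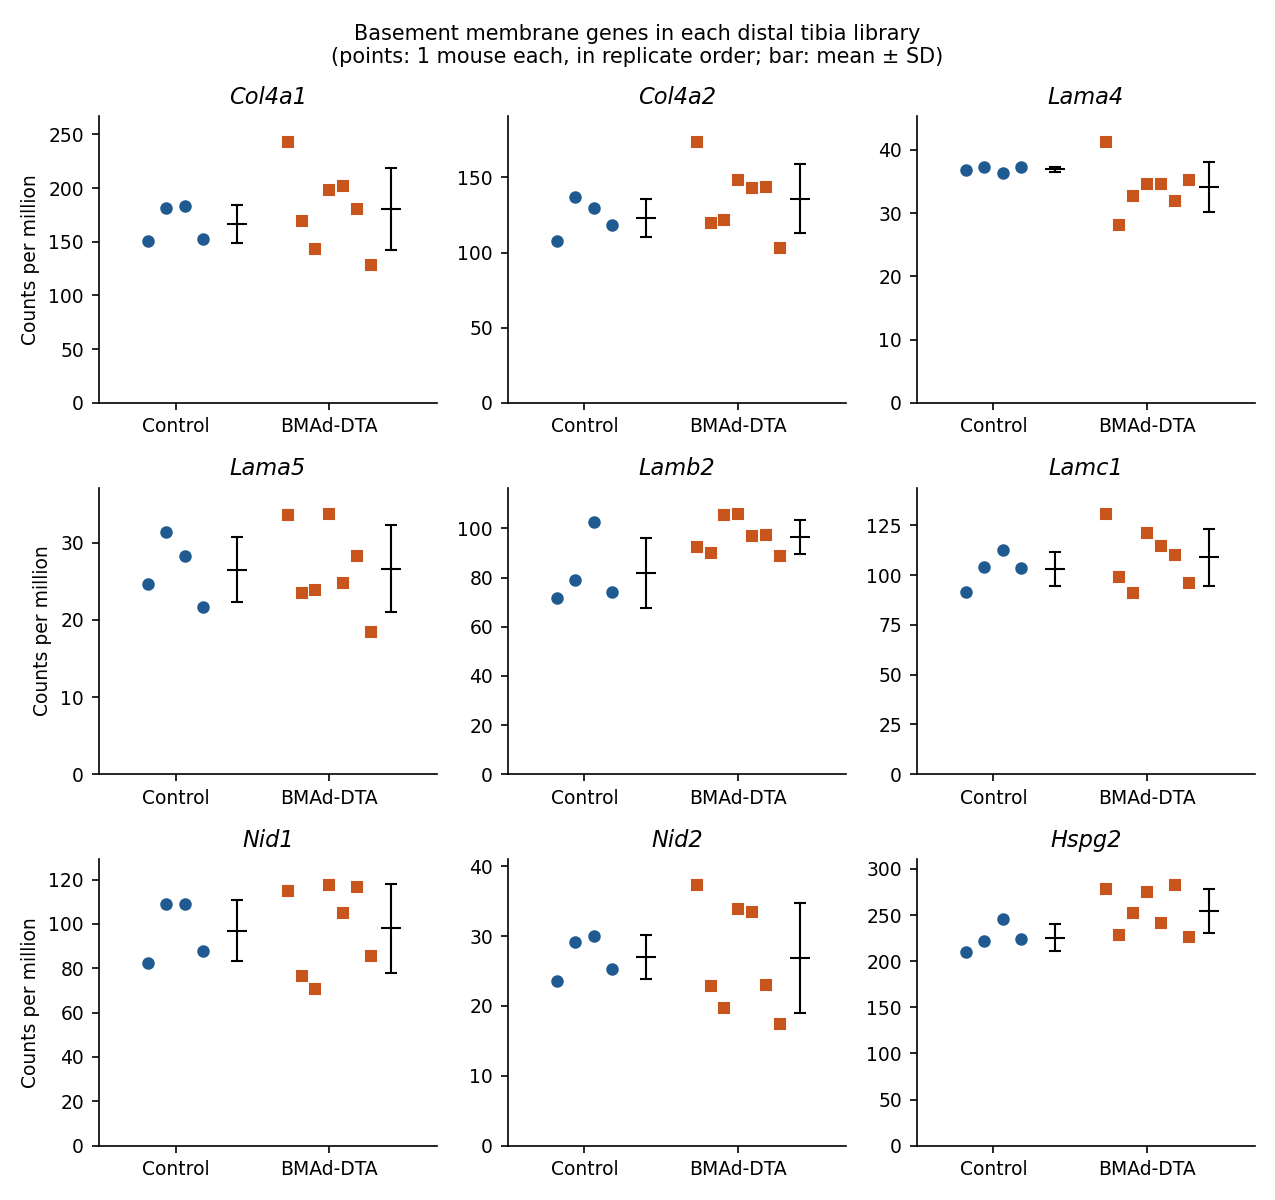
CPM of each member in every library, Control (circles, n = 4) and BMAd-DTA (squares, n = 7), with the mean ± SD beside each group and all axes starting at 0. The groups overlap in all 9 genes, and the coefficient of variation is larger in BMAd-DTA than in Control in 8 of the 9, all but Lamb2. The same count was not made over all genes, and most members varied together, so the 8 are not separate results.

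Col4a1 and Col4a2 encode the alpha1 and alpha2 chains, which assemble into the collagen IV trimer found in nearly all basement membranes. Col4a1 (ENSMUSG00000031502.11, GRCm38 chr8:11198423-11312826, minus strand) measured 151, 181, 183 and 152 CPM in Control replicates 1 to 4, and a lowest, median and highest of 128, 181 and 243 CPM in BMAd-DTA. Of the BMAd-DTA libraries, 3 lay above all Control libraries and 2 below them. Its log2 fold change was 0.12 (SE 0.15, 95% interval -0.20 to 0.43, edgeR adjusted p = 0.755, n = 4 and 7). Col4a2 (ENSMUSG00000031503.13, chr8:11312805-11449287, plus strand) measured 108, 137, 129 and 118 CPM in Control and 103, 143 and 173 CPM in BMAd-DTA. Here 4 BMAd-DTA libraries lay above and 1 below every Control library, and the log2 fold change was 0.14 (SE 0.12, interval -0.12 to 0.41, edgeR adjusted p = 0.616). BMAd-DTA replicate 1 was the highest and replicate 7 the lowest library for both chains.

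Lama4 and Lama5 encode the alpha chains of the vascular laminins, Lamb2 a beta chain and Lamc1 the gamma chain shared by most laminin trimers. Lama4 (ENSMUSG00000019846.11, chr10:38965515-39110188, plus strand) was tightly grouped in Control at 36.8, 37.3, 36.4 and 37.3 CPM, and spread from 28.2 through a median of 34.6 to 41.2 CPM in BMAd-DTA. In BMAd-DTA, 6 of 7 libraries lay below every Control library and 1, replicate 1, lay above them. The Control range was narrow (coefficient of variation 1.15%), so a small difference was enough to place a library outside it. The log2 fold change was -0.12 (SE 0.087, interval -0.31 to 0.071, edgeR adjusted p = 0.55), and the exact permutation p was 0.194. Lama5 (ENSMUSG00000015647.9, chr2:180176373-180225859, minus strand) measured 24.7, 31.4, 28.3 and 21.7 CPM in Control and 18.5, 24.9 and 33.8 CPM in BMAd-DTA. Its groups overlapped almost fully, with a log2 fold change of 0.0060 (SE 0.16, interval -0.34 to 0.35, edgeR adjusted p = 0.99).

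Lamb2 (ENSMUSG00000052911.9, chr9:108479736-108490530, plus strand) had the highest log2 fold change among the members. It measured 71.9, 79.0, 103 and 74.2 CPM in Control, where replicate 3 stood above the others, and 88.9, 96.8 and 106 CPM in BMAd-DTA. All 7 BMAd-DTA libraries lay above Control replicates 1, 2 and 4, but only 2 lay above replicate 3. The log2 fold change was 0.24 (SE 0.095, interval 0.035 to 0.44, edgeR unadjusted p = 0.025, adjusted p = 0.223). An exact two-sided permutation test over the 330 ways to choose the 4 Control mice gave p = 0.0333, where 0.00303 is the smallest possible. Without Control replicate 3 the log2 fold change was 0.37 and the edgeR adjusted p 0.0393, so this 1 library decides whether Lamb2 passes. Lamc1 (ENSMUSG00000026478.14, chr1:153218922-153332786, minus strand) measured 91.5, 104, 112 and 104 CPM in Control and 91, 110.2 and 131 CPM in BMAd-DTA. The Lamc1 groups overlapped, and the log2 fold change was 0.082 (SE 0.098, interval -0.13 to 0.29, edgeR adjusted p = 0.738).

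The nidogens bind the laminin gamma1 chain and collagen IV. Nid1 (ENSMUSG00000005397.8, chr13:13437551-13512269, plus strand) measured 82.2, 109, 109 and 87.9 CPM in Control and 70.6, 105 and 117 CPM in BMAd-DTA. Nid2 (ENSMUSG00000021806.4, chr14:19751265-19811787, plus strand) measured 23.5, 29.1, 30.1 and 25.3 CPM in Control and 17.5, 23.0 and 37.3 CPM in BMAd-DTA. Both nidogens had BMAd-DTA libraries on either side of the whole Control range, 3 above and 2 below for Nid1 and 3 above and 4 below for Nid2. The log2 fold changes were 0.016 (SE 0.15, interval -0.31 to 0.34, edgeR adjusted p = 0.975) and -0.011 (SE 0.20, interval -0.43 to 0.41, edgeR adjusted p = 0.986). The coefficient of variation of Nid2 was 29.4% in BMAd-DTA, the widest of the members in either group, and 11.5% in Control. Nid2 shares 437 exonic bases with the gene Rtraf on the opposite strand, which the strand-specific counts separate.

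Perlecan, the product of Hspg2 (ENSMUSG00000028763.18 in the count table and an earlier version of that ID in the annotation, chr4:137468769-137570630, plus strand), carries heparan sulfate chains that hold growth factors in the matrix. Hspg2 measured 209.9, 222, 245 and 224 CPM in Control and 227, 252 and 282 CPM in BMAd-DTA. No BMAd-DTA library lay below the Control range and 4 lay above it. The log2 fold change was 0.18 (SE 0.078, interval 0.0093 to 0.35, edgeR unadjusted p = 0.0401, adjusted p = 0.275), and the exact permutation p was 0.0515.

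**Figure D2:**
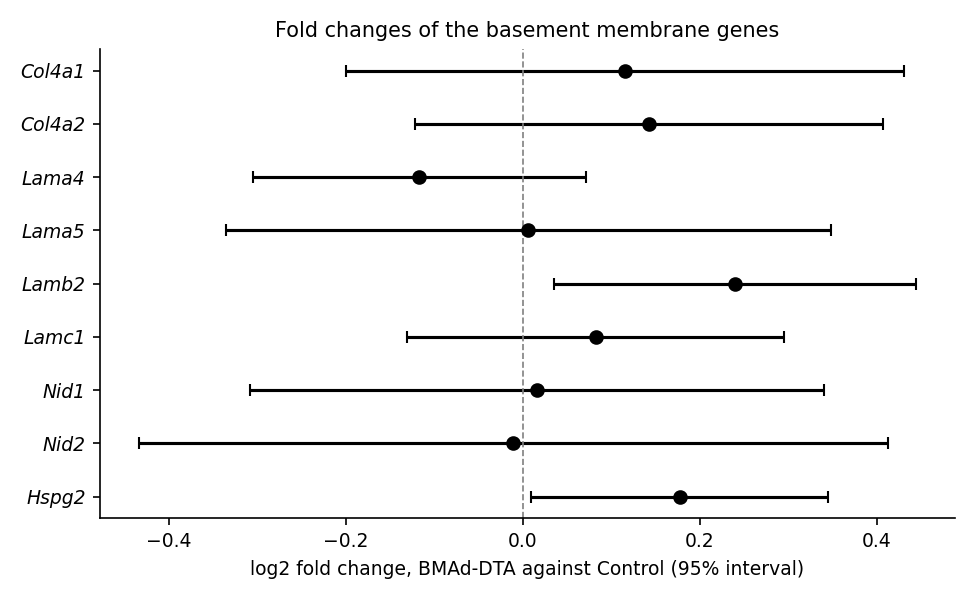
Log2 fold change of each member, BMAd-DTA against Control, with its 95% interval from the edgeR fit. The intervals of Lamb2 (0.035 to 0.44) and Hspg2 (0.0093 to 0.35) lie above 0, before adjustment over all genes, and the other 7 include 0.

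Per kilobase of exon, the collagen IV chains were the most abundant members and the laminin alpha chains the least. The median level over the 11 libraries was 24.2 CPM per kb for Col4a1, 19.6 for Col4a2, 16.9 for Hspg2, 15.2 for Lamb2, 15.1 for Nid1, 12.6 for Lamc1, 4.89 for Nid2, 2.92 for Lama4 and 2.18 for Lama5. Col4a1 was above Col4a2 in 11 of 11 libraries, Col4a2 above Hspg2 in 10, and Hspg2 above Lamb2 in 11. Lamb2 was above Nid1 in only 6 of 11, so these neighbours cannot be ordered. Nid1 was above Lamc1 in 9 libraries and Lama4 above Lama5 in 10. Lamc1 was above Nid2 in all 11 and was the only gene whose range did not overlap that of its lower neighbour.

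Ratios within a library compare partner genes without the scaling between libraries. Col4a1 stood at 1.18 ± 0.072 times Col4a2 per kb (SD, n = 11), with a median of 1.20 in Control and 1.19 in BMAd-DTA. The difference in the log2 ratio was -0.037 between groups (exact permutation p = 0.524). Nid1 stood at 2.77 ± 0.48 times Nid2 per kb, with a difference of 0.057 (exact permutation p = 0.748). The ratios of Lama4 to Lama5, Lamc1 to Col4a1 and Hspg2 to Col4a1 differed by -0.12, -0.018 and 0.081 on the log2 scale. Over these 5 ratios the adjusted exact permutation p was 0.842 for each.

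Most members varied together from library to library, and Lama4 and Lamb2 did so the least. The Pearson r of log2 CPM over the 11 libraries had a median of 0.65 among the 36 pairs of members and ran from -0.32 to 0.94, and the libraries share their scaling and tissue makeup. With the group means removed the median was 0.72. Col4a1 and Col4a2 were the most alike pair (r 0.94, rho 0.86), and r was 0.86 without the 2 outermost libraries. Col4a1 was also close to Nid2 (r 0.92) and Lamc1 (r 0.91). Lamb2 had r between 0.17 and 0.43 with the collagen IV chains, Lama5, Lamc1 and the nidogens, and 0.75 with Hspg2. Lama4 had r of -0.32 with Lamb2 and at most 0.48 with any member. With the group means removed, these values were -0.050 and at most 0.56. No relation between promoter sequence and level was tested.

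**Figure D3:**
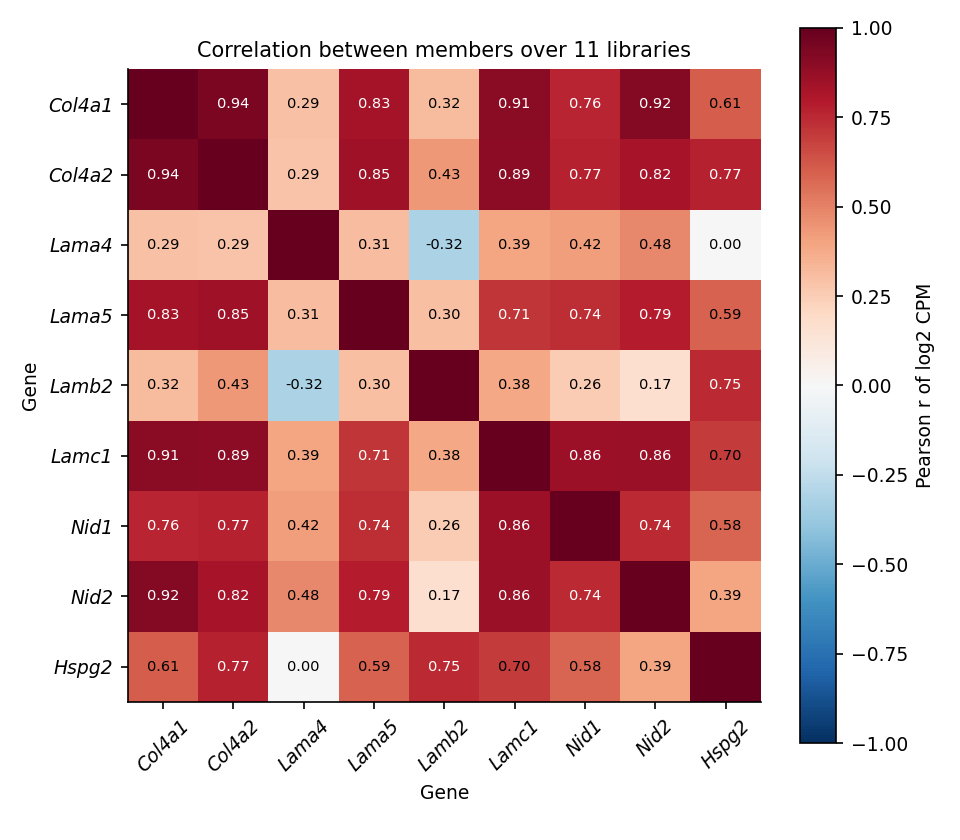
Pearson r of log2 CPM over 11 libraries for each pair of members, on a colour scale from -1 (blue) to 1 (red). Col4a1, Col4a2, Lama5, Lamc1, Nid1 and Nid2 form a block of r from 0.71 to 0.94, and the rows of Lama4 and Lamb2 are paler.

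Among all 16496 genes, Col4a1 and Col4a2 were each other's closest match. The gene most like Lamc1 was Lama1, the laminin alpha1 chain (r 0.95, rho 0.94). For Lamb2 it was Gadd45g (r 0.97), for Nid1 Prdm16 (r 0.94), for Hspg2 Fam129b (r 0.92) and for Lama4 Exoc4 (r 0.89). Lama5 was most like Slc6a17 (r 0.92) and Nid2 most like 3830403N18Rik (r 0.92), both of which are sparse, with mean levels of 1.31 and 0.966 CPM. Each is the highest of 16496 correlations over 11 libraries and is given as a description.

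Inside the BMAd-DTA group, several members were lowest in the libraries that were also lowest for markers of endothelium, marrow stroma, adipocytes and pericytes. Of 18 endothelial genes tested, 6 had a log2 fold change above 0 and 12 below, none with an unadjusted p under 0.05, and the median was -0.088. Their summed level was 1633 to 1736 CPM in Control, and in BMAd-DTA it was 1330 to 1421 CPM in replicates 2, 3 and 7 and 1695 to 1816 CPM in the other 4. For 6 of the 9 members, the same 3 libraries were the lowest of the BMAd-DTA group. Col4a1 was at 128 to 169.5 CPM in them and 181 to 243 CPM in the other 4, and Nid1 at 70.6 to 85.4 CPM against 105 to 117 CPM. Lama4, Lamb2 and Hspg2 did not follow this order. Of the 10 marker lists, 4 had their lowest BMAd-DTA sums in these same 3 libraries. Besides endothelium these were marrow stroma, at 3978 to 4600 CPM against 5846 to 6272 CPM in the other 4, adipocytes, at 904 to 1078 CPM against 1530 to 1929 CPM, and pericytes and smooth muscle, at 507 to 609 CPM against 621 to 702 CPM. In Control, the endothelial sum did not show this order, while adipocytes and pericytes did. Control replicates 1 and 4 had the highest endothelial sums (1736 and 1708 CPM) and the lowest Col4a1 (151 and 152 CPM). Their Nid1 was the lowest in Control too, at 82.2 and 87.9 CPM. These 2 libraries had the lowest Control sums for adipocytes (2266 and 1678 CPM) and pericytes and smooth muscle (566 and 496 CPM). Marrow stroma was lowest in replicate 1 (3838 CPM) and highest in replicate 4 (5520 CPM). By the mean log2 CPM of the 18 endothelial genes, Control replicate 1 was highest (6.02) and replicate 4 lowest (5.86). The part of cell makeup in the levels of the members was not tested.

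**Figure D4:**
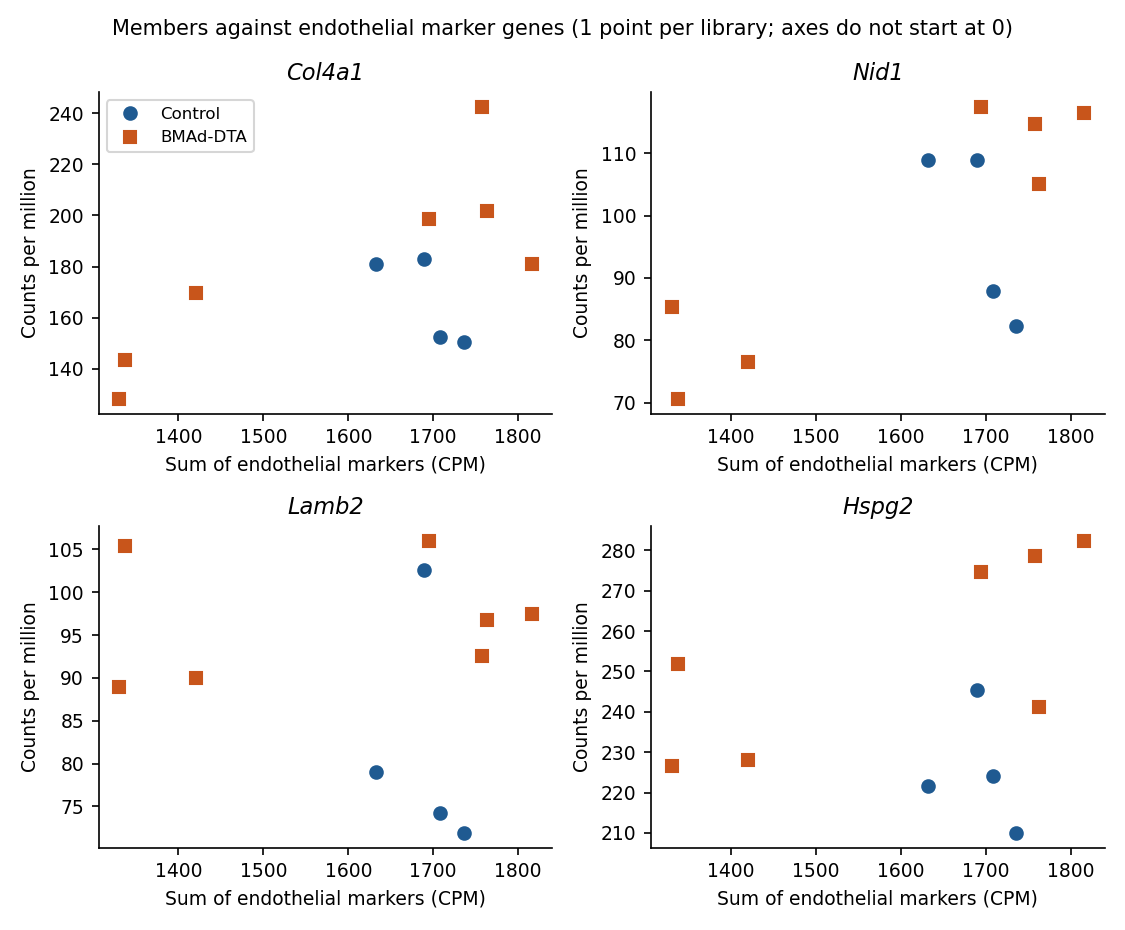
CPM of 4 members (vertical axes, not starting at 0) against the summed level of 18 endothelial markers in CPM, 1 point per library, Control circles and BMAd-DTA squares. The 3 BMAd-DTA libraries at 1330 to 1421 CPM hold the lowest BMAd-DTA values of Col4a1 and Nid1, while Lamb2 and Hspg2 do not follow that order. In Control, Col4a1 and Nid1 are lowest in replicates 1 and 4, which have the highest endothelial sums. By the mean log2 CPM of these markers, replicate 1 is the highest in Control (6.02) but replicate 4 the lowest (5.86).

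Other cell types that make or contact basement membrane differed in their own ways. All 16 adipocyte genes had a log2 fold change below 0 (median -0.79). Of these, 11 had an edgeR unadjusted p under 0.05, and only Retn passed the adjusted threshold. Pericyte and smooth muscle genes had a median of -0.15 over 13 genes and Schwann cell genes 0.27 over 11, with none called. In each of these 2 lists, 3 genes had an edgeR unadjusted p under 0.05, all higher in BMAd-DTA. Over all genes tested, 7.89% reached it higher in BMAd-DTA and 8.53% lower. All 15 skeletal muscle genes were below 0 (median -0.91), none with an unadjusted p under 0.05. Chondrocyte genes had a median of 0.41 over 9 genes, marrow stroma 0.042 over 8, blood cells -0.072 over 11 and epithelium 0.30 over 3, again with none called. An edgeR unadjusted p under 0.05 was reached by 3 chondrocyte genes, all higher in BMAd-DTA. In marrow stroma 2 genes reached it higher and 1 lower, and in blood cells 2 higher and 2 lower. All 12 osteoblast and osteocyte genes were above 0 (median 1.06, Alpl called), and all 12 had an edgeR unadjusted p under 0.05. Their summed level was 15617 to 36483 CPM in BMAd-DTA against 3075 to 13196 CPM in Control. Beside this, Lamb2 and Hspg2 were the members with the highest fold changes, and the part of bone cells in them was not tested. In the 7 muscle-rich libraries alone (3 Control, 4 BMAd-DTA), the log2 fold change was 0.19 for Lamb2 (edgeR unadjusted p = 0.173) and 0.23 for Hspg2 (edgeR unadjusted p = 0.041).

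The minor chains of the same families were mostly below 10 CPM on average, and none passed the test. Of the other collagen IV and laminin chains, 9 were tested, 8 had a log2 fold change above 0 and 1 below, and the median was 0.33. An edgeR unadjusted p under 0.05 was reached by 2 of them, both higher in BMAd-DTA. Col4a5 had the highest, 1.12 (SE 0.39, edgeR adjusted p = 0.169), from 0.32 ± 0.096 to 0.705 ± 0.25 CPM (SD, n = 4 and 7). Lama3 had the lowest, -0.25 (edgeR adjusted p = 0.548). Of 14 other basement membrane proteins, 8 lay above 0 and 6 below (median 0.095), from Smoc1 at -0.77 (edgeR adjusted p = 0.173) to Fras1 at 1.20 (edgeR adjusted p = 0.0846). Of these 14, 2 had an edgeR unadjusted p under 0.05 higher in BMAd-DTA and 1 lower. Fras1, which anchors epithelial sheets to the matrix below, was low, at 1.72 ± 0.65 CPM in Control and 3.97 ± 1.08 CPM in BMAd-DTA, and its groups did not overlap.

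None of the receptors for laminin and collagen IV passed the test. Among 14 receptor genes, 9 lay above 0 and 5 below (median 0.037), and 3 had an edgeR unadjusted p under 0.05, all higher in BMAd-DTA. Sdc2, a cell surface heparan sulfate proteoglycan, had the highest log2 fold change at 0.42 (SE 0.090, edgeR adjusted p = 0.0675), from 51.2 ± 5.22 to 68.8 ± 7.04 CPM, and its groups did not overlap. Itga6, the alpha6 subunit of laminin-binding integrins, had the lowest at -0.26 (edgeR adjusted p = 0.463).

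The enzymes that fold, crosslink or cut basement membrane proteins included the only genes of the 5 pathway lists to pass the test. Of 14 folding and crosslinking genes, 11 lay above 0 and 3 below (median 0.24), and 1 was called. An edgeR unadjusted p under 0.05 was reached by 8, all higher in BMAd-DTA, where 7.89% of all genes reached it in that direction. Loxl2, a lysyl oxidase that crosslinks collagen IV and other collagens, measured 31.4, 39.0, 38.9 and 33.2 CPM in Control and 49.4, 58.7 and 72.4 CPM in BMAd-DTA (lowest, median, highest), with no overlap. It rose by a log2 fold change of 0.77 (SE 0.11, edgeR adjusted p = 0.0326). This call was lost without Control replicate 1 or 2 or BMAd-DTA replicate 1, 3, 4 or 6, where the log2 fold change was 0.71 to 0.82 and the edgeR adjusted p 0.0515 to 0.142. It was also lost with a skeletal muscle covariate (edgeR adjusted p = 0.0682) and in the muscle-rich libraries (0.081). Sparc, which binds collagen IV and is abundant in bone matrix, had the highest log2 fold change at 1.07 (edgeR adjusted p = 0.0957), and Pxdn, the peroxidase that forms the sulfilimine bond of collagen IV, the lowest at -0.43 (edgeR adjusted p = 0.351). Several of these enzymes also act on the fibrillar collagens of bone.

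Among 11 proteases and heparanase, 10 lay above 0 and 1 below (median 0.11), and 1 was called. An edgeR unadjusted p under 0.05 was reached by 4, all higher in BMAd-DTA. Mmp2, a gelatinase that cleaves collagen IV, measured 87.3, 89.3, 103 and 102 CPM in Control and 137, 167 and 206 CPM in BMAd-DTA, again with no overlap. It rose by a log2 fold change of 0.83 (SE 0.12, edgeR adjusted p = 0.0326). The call was lost without Control replicate 1 or 2 or BMAd-DTA replicate 1, 4 or 6, where the log2 fold change was 0.78 to 0.88 and the edgeR adjusted p 0.0526 to 0.142. It was lost as well with the muscle covariate (edgeR adjusted p = 0.0682) and in the muscle-rich libraries (0.0612). Mmp3 had the highest log2 fold change, 1.06, from 0.886 to 1.86 CPM (edgeR adjusted p = 0.221), and Hpse, which cuts heparan sulfate, the lowest at -0.11 (edgeR adjusted p = 0.76).

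**Figure D5:**
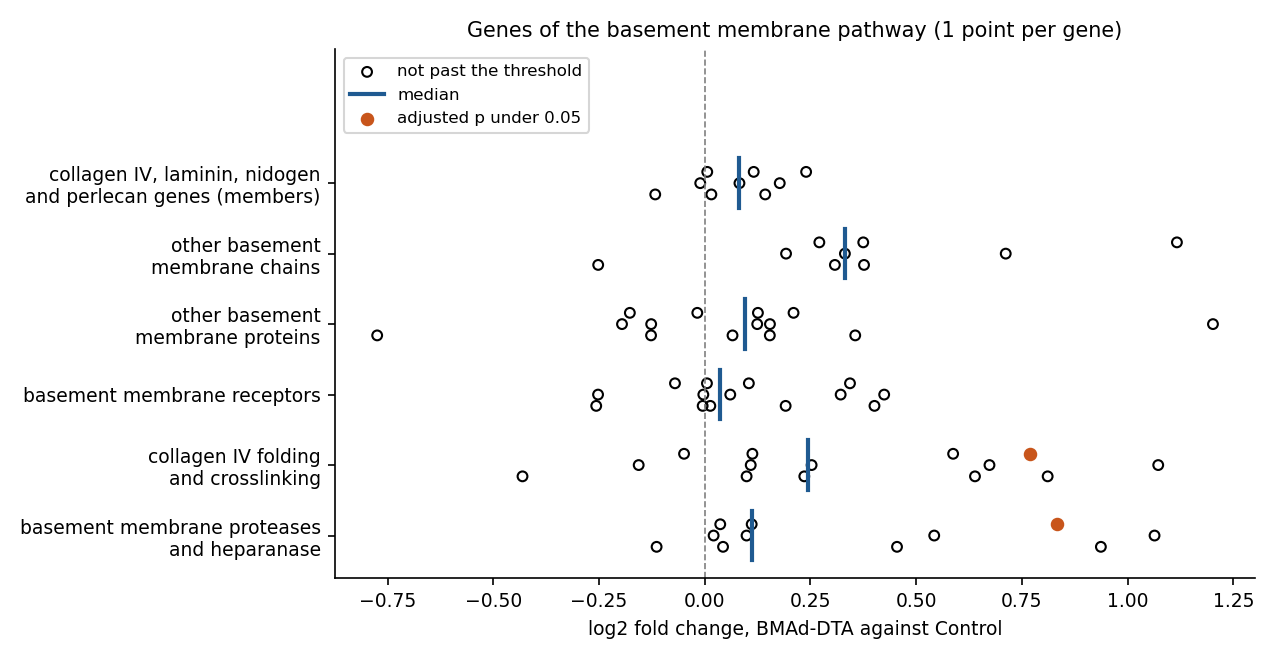
Log2 fold change (horizontal axis) of the members and of the genes of 5 related lists, 1 point per gene, with the list median as a vertical bar and filled points for an adjusted p under 0.05. The filled points are Loxl2 (0.77) and Mmp2 (0.83), and the members lie between -0.12 and 0.24.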

How the data were processed

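The libraries were made from whole distal tibial RNA (4 Control, 7 BMAd-DTA), and groups follow the source labels. The authors checked reads with FastQC 0.11.9 and aligned them to mm10 with STAR, and they deposited whole-number counts per gene, as per-library files and as a merged table that holds the strand-specific column. The counts were used as deposited. The authors' own analysis used DESeq2, an alternative here. Genes were filtered with filterByExpr, scaled by TMM and tested with edgeR 4.0.16 (glmQLFit, glmQLFTest) in R 4.3.3, two-sided, with Benjamini-Hochberg adjustment over 16496 genes at 0.05. SE is the fold change over the root of F. Exact permutation tests used log2 CPM with a prior count of 2. DESeq2 1.42.0, limma 3.58.1 (voom), other scalings, filters and count columns, a muscle covariate and leaving out each mouse were alternatives. The fit was tested on simulated data.

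Exonic lengths and positions came from GENCODE M21 (GRCm38), and promoter windows from RefSeq (GRCm38.p6). Depth was 16969529 to 18637663 counts, and members had 328 to 5026 counts per library. Members and lists were chosen with earlier results of these data known. The rule for named genes was the members, every gene past the threshold and the highest and lowest fold change of each pathway list, and the gene most correlated with each member. Of the genes on the pathway and marker lists, Mmp7, Egfl7, Robo4, Pmp2, Krt5, Krt14 and Klf1 were not analysed here, nor was the planned ratio of Lamb1 to Lamb2. Col4a6, Frem1, Frem2, Higd1b, Myh7, Matn3 and Krt8 were below the filter on low counts. Retn and Alpl are outside the naming rule and were named after their values were seen.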

Additional observations from a re-analysis of the deposited data

How the results depend on the processing

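The count of members called was 0 under all 21 alternatives, except without Control replicate 3, where Lamb2 passed (a range of 0 to 1 over the fits that leave out 1 mouse). The median member log2 fold change stayed above 0, from 0.029 to 0.13. The number of genes called overall was 845 with DESeq2, 20 with limma-voom, 20 with RLE scaling, 3 with the muscle score as a covariate and 103 in the muscle-rich libraries, a setting added after seeing the data, beside 13. It ranged from 0 to 292 when 1 mouse was left out: 0 without Control replicate 1 or 2 or BMAd-DTA replicate 1 or 6, 292 without Control replicate 3, 89 without Control replicate 4, 8 without BMAd-DTA replicate 3 and 3 without BMAd-DTA replicate 4. Fold changes near 0 changed sign: Lama5 was -0.0048 with limma-voom and ranged from -0.080 to 0.098 without 1 mouse, Nid1 was -5.7e-06 with limma-voom and ranged from -0.056 to 0.082, and Nid2 was 0.0019 with upper quartile scaling, 0.0028 with the muscle covariate and 0.016 in the muscle-rich libraries and ranged from -0.11 to 0.071. The log2 ratio difference of Lamc1 to Col4a1 ranged from -0.067 to 0.028 and that of Nid1 to Nid2 from -0.017 to 0.10. The log2 fold change of Lamb2 ranged from 0.18 to 0.37 without 1 mouse. Loxl2 and Mmp2 kept their direction throughout and lost their calls with the muscle covariate and in the muscle-rich libraries, and Alpl with the covariate. Hpse was 0.072 in the muscle-rich libraries and ranged from -0.26 to 0.013 without 1 mouse. Sdc2, Fras1 and Sparc passed with DESeq2, and Sdc2 also in the muscle-rich libraries and without Control replicate 4. Retn lost its call without Control replicate 1 or 2 or BMAd-DTA replicate 1 or 6, and Alpl also without BMAd-DTA replicate 4. The causes were not tested. Without Control replicate 1, 2 or 4 neither Lamb2 nor Hspg2 had an unadjusted p under 0.05, nor did Hspg2 without BMAd-DTA replicate 1, 3, 4 or 6, or Lamb2 in the muscle-rich libraries. Without BMAd-DTA replicate 1, Lama4 gained one, at a log2 fold change of -0.17 (edgeR adjusted p = 0.295). With 4 Control mice, the interval of Nid2, the widest, runs from -0.43 to 0.41, so changes of Nid2 within it were not excluded.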
